A study of Mus musculus with 13 samples.

Results

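NF-κB is the family of transcription factors through which macrophages answer bacterial products, and the 10 genes described here encode its DNA-binding subunits and its IκB-type inhibitors. They are the 5 subunits *Nfkb1*, *Nfkb2*, *Rel*, *Rela* and *Relb*, the 3 classical inhibitors *Nfkbia*, *Nfkbib* and *Nfkbie*, and the 2 nuclear IκB proteins *Nfkbiz* and *Bcl3*. The genes were chosen by name, with earlier results of these data known. Each was read from the RefSeq transcript of its symbol with the highest total count, out of 24445 genes in the count table. All 10 passed the filter on low counts, which left 11942 genes to be tested.

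On GRCm38, the subunit genes lie on chromosome 3 at 135584655 to 135691547 (*Nfkb1*), chromosome 19 at 46304320 to 46312385 (*Nfkb2*) and 5637483 to 5648130 (*Rela*), chromosome 11 at 23736847 to 23770970 (*Rel*) and chromosome 7 at 19606217 to 19629438 (*Relb*). The inhibitor genes lie on chromosome 12 at 55489410 to 55492647 (*Nfkbia*), chromosome 7 at 28758251 to 28767512 (*Nfkbib*), chromosome 17 at 45555703 to 45563169 (*Nfkbie*), chromosome 16 at 55811375 to 55838899 (*Nfkbiz*) and chromosome 7 at 19808462 to 19822770 (*Bcl3*). Exons of *Nfkb2*, *Nfkbib* and *Bcl3* overlap those of genes on the other strand, *Psd* among them for *Nfkb2*.

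The libraries were made from bone marrow-derived macrophages (BMDMs) of C57Bl/6J mice, grown in medium conditioned by L929 fibroblasts and stimulated with LPS, a component of the bacterial outer membrane. Control mice carried Acly with loxP sites (Acly fl/fl, labelled WT), and AclyM-KO mice (labelled KO) carried the same floxed allele with Cre expressed from *Lyz2*, a gene of myeloid cells, so that Acly, the enzyme that makes cytosolic acetyl-CoA from citrate, is lost in this lineage. RNA-seq counts were analysed for 3 control and 3 AclyM-KO libraries after 3 h of LPS, and for 4 control and 3 AclyM-KO libraries after 24 h. No unstimulated library was analysed here, so a level after 3 h cannot be set against rest. AclyM-KO libraries differ from controls in Cre and the *Lyz2* locus as well as in Acly, and these cannot be told apart here. Below, an Acly effect means the difference between the genotypes.

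In resting cells the NF-κB dimers are held in the cytoplasm by IκB proteins. LPS binding to TLR4 activates the IκB kinase, IκB is degraded, and the freed dimers enter the nucleus and switch on cytokine genes together with the genes of several of their own subunits and inhibitors. *Nfkbia* (IκBα) is the inhibitor made anew most quickly in this loop, whereas *Nfkbiz* (IκBζ) and *Bcl3* act in the nucleus, where IκBζ helps p50 dimers to activate a later set of genes that includes *Il6*.

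Total counts were 21274102 to 59577343 (median 22683294) in 12 libraries, in which 1 count stood for at most 0.0524 CPM, the count scaled to library size after TMM normalization. The remaining library, control 24 h replicate 1, held only 34467 counts, so that 1 count stood for 22.4 CPM, and its values for 9 of the 10 genes lay above those of the other control 24 h libraries. The fit reported here therefore uses 12 libraries, 3 in each group, and the result with all 13 is given beside each comparison at 24 h. Nothing in the labels says that replicates came from separate mice, so p-values measure only the spread between these samples. *Acly* itself was at 104.6 to 106.8 CPM in the 3 controls and 37.7 to 46.2 CPM in AclyM-KO macrophages after 3 h, and at 107.5 to 112.9 against 29.1 to 30.5 CPM after 24 h, so that every library of the 12 matched its label. The macrophage marker list was present in every group, with 8 or 9 of its 9 genes above 10 CPM. Its summed level was 9989 to 10090 CPM in controls and 6923 to 7857 CPM in AclyM-KO macrophages after 3 h, and 6057 to 6356 against 4542 to 4646 CPM after 24 h. Without *Lyz2*, the gene whose locus carries Cre, these sums were 4721 to 4866 against 4650 to 4913 CPM and 3661 to 3835 against 3597 to 3786 CPM. Of these 8 genes, 3 were called lower and 1 higher in AclyM-KO macrophages after 3 h, and 2 lower after 24 h. The neutrophil list summed to at most 15.3 CPM in any of the 12 libraries and *Ly6g* was at 0 in all of them. The T cell list, nearly all of it *Cd4*, summed to 23.6 to 25.6 CPM in controls and 13.6 to 18.03 CPM in AclyM-KO macrophages after 3 h, and to 8.91 to 10.02 against 5.26 to 5.83 CPM after 24 h. *Cd4* was called lower at both times and the other 4 genes of the list were below 1 CPM. The part of these marker differences in the results was not tested. In bulk RNA, fewer cells with a transcript and less transcript per cell cannot be told apart.

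Promoter sequence is shown for 4 of the genes, because all 10 moved together between the time points and NF-κB recognises a GC-rich motif with an AT-rich centre. RefSeq windows on GRCm38.p6, from 250 bases before to 50 bases after the annotated start, were at hand for 7 of the 10 genes (not *Nfkb1*, *Relb* and *Nfkbiz*). A longer motif, GGGA then any base then TTTCC, searched on both strands, was found for *Nfkbia* and *Nfkb2*, 2 of these 7 genes, beside 0.466% of 27025 genes with such windows (0.411% of 32851 windows). A looser motif, GGG then any 5 bases then CC, which contains every match of the first, was found for 6 of the 7 genes, beside 53.5% of all genes (50.8% of windows), so its presence is common. Capitals mark the longer motif on either strand for *Nfkbia* and *Nfkb2* and the looser one for *Rel*, and the *Nfkbib* window holds neither. The windows are chr12:55492598-55492897 on the minus strand (*Nfkbia*), chr19:46305445-46305744 on the plus strand (*Nfkb2*, one of its 3 windows), chr11:23770920-23771219 on the minus strand (*Rel*) and chr7:28766595-28766894 on the minus strand (*Nfkbib*), each written 5′ to 3′ along the gene.
Nfkbia: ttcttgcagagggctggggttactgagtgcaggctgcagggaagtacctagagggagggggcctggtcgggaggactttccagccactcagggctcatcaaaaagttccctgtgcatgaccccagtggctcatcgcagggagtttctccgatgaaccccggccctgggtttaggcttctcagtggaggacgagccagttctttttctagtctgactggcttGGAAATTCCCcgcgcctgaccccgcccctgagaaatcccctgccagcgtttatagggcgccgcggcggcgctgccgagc
Nfkb2: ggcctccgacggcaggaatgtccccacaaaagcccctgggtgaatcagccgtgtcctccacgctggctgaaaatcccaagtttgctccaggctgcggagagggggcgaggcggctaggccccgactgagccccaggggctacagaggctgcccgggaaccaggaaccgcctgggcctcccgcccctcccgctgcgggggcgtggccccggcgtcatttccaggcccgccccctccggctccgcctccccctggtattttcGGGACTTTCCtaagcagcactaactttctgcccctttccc
Rel: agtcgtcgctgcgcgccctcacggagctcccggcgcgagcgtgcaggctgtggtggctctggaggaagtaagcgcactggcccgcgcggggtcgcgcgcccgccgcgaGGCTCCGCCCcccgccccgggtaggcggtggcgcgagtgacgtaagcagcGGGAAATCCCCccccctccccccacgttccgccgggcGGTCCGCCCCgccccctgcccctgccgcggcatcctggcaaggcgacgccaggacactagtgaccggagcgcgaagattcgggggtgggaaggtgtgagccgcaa
Nfkbib: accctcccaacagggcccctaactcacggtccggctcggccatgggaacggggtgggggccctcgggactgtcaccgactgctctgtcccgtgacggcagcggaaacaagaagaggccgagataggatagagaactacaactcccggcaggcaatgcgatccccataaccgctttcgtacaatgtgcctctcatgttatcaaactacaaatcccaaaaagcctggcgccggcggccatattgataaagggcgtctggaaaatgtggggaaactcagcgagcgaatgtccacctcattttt
In *Nfkbia* the match GGAAATTCCC lies 29 bases before the start, read on the other strand. In *Nfkb2* the match GGGACTTTCC begins at base 11 counted from the annotated start, near the 3′ end of the window. A match describes these letters only and was not tested for binding.

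The first question was which of these transcripts dominate in LPS-stimulated macrophages. Levels between genes are compared as CPM per kb of transcript. After 3 h of LPS in controls, *Nfkbia* stood at 392 ± 6.36 CPM per kb (SD, n = 3), followed by *Nfkb2* at 126 ± 2.73 and *Nfkb1* at 98.8 ± 1.82, the genes of the p52 and p50 precursors. Next came *Nfkbiz* at 84.9 ± 2.35, *Nfkbie* (IκBε) at 78.5 ± 3.24 and *Rela* (p65) at 57.3 ± 1.85 CPM per kb. *Bcl3* and *Nfkbib* (IκBβ) overlapped, at 42.7 ± 1.86 and 39.6 ± 2.66, and *Relb* at 34.6 ± 1.39 and *Rel* (c-Rel) at 10.1 ± 0.416 were lowest. The inhibitor IκBα thus had the most abundant transcript of the family and c-Rel the least abundant, and all neighbours in this order other than *Bcl3* and *Nfkbib* had libraries that did not overlap. In AclyM-KO macrophages after 3 h, *Nfkbiz* held the third place at 122 ± 5.99 CPM per kb, with libraries that overlapped those of *Nfkb2* at 130.3 ± 7.09 and lay above those of *Nfkb1* at 104.9 ± 9.31.

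After 24 h *Nfkbia* and *Nfkb2* still led, at 182 ± 3.12 and 48.2 ± 2.58 CPM per kb in controls. *Nfkbiz* had moved to the ninth place at 11.5 ± 0.788, and *Rel* remained the lowest at 1.68 ± 0.0813 CPM per kb. The pairs *Nfkbib* and *Rela* (21.3 and 20.3 CPM per kb) and *Relb* and *Bcl3* (15.88 and 15.03 CPM per kb) overlapped. In AclyM-KO macrophages *Nfkbib* held the third place at 26.8 ± 0.0662 CPM per kb, above *Nfkbie* at 25.2 ± 0.949, which it followed in controls (21.3 ± 1.60 against 23.7 ± 0.715).

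The composition of the subunit transcripts differed with time. *Nfkb1* made up 30.2% ± 0.563 of the summed level of the 5 subunits per kb in controls after 3 h and 18.02% ± 0.718 after 24 h. *Nfkb2* made up 38.6% ± 0.736 and 45.9% ± 0.599, and *Relb*, its partner in the alternative pathway, 10.6% ± 0.452 and 15.1% ± 0.877. *Rela* held 17.5% ± 0.522 and 19.4% ± 0.821, and *Rel* 3.08% ± 0.110 and 1.60% ± 0.0595. The libraries of the time points did not overlap for any of these shares, which sum to the whole and so are not independent of each other. AclyM-KO macrophages held like shares, 30.0% ± 0.729 and 17.5% ± 0.466 for *Nfkb1* and 37.3% ± 0.434 and 46.2% ± 0.466 for *Nfkb2*. The summed level of the 3 classical inhibitors was 1.56 ± 0.0147 times that of the 5 subunits in controls after 3 h and 2.16 ± 0.0954 times after 24 h, and 1.51 ± 0.0222 and 2.11 ± 0.0173 times in AclyM-KO macrophages. These shares and ratios describe RNA and not protein, and their differences were not tested.

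**Figure D1:**
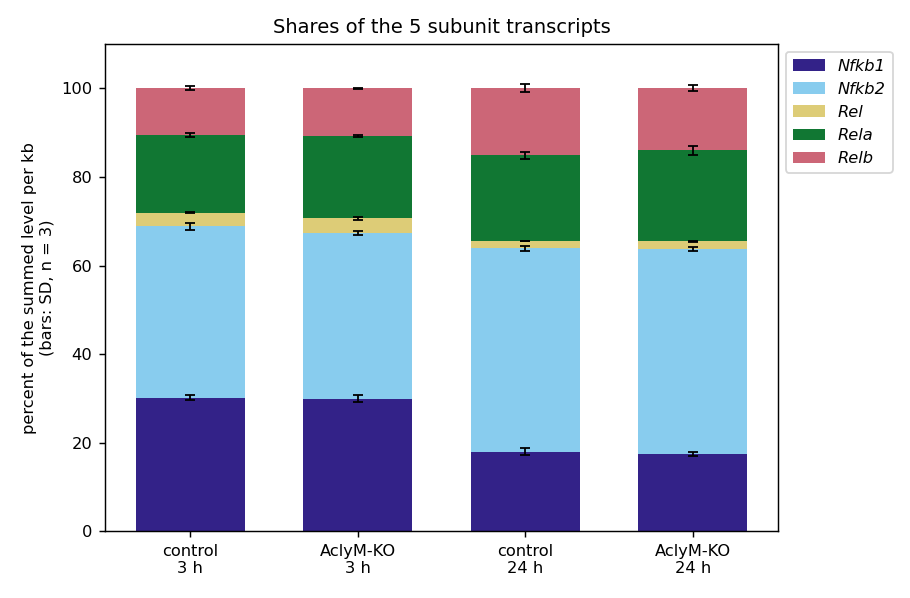
Shares of the 5 NF-κB subunit transcripts, in percent of their summed CPM per kb (vertical axis), in the 4 groups (horizontal axis, mean of 3 libraries each). The bar at the top of each segment is the SD of that segment's share, and the *Nfkb1* segment is smaller after 24 h (18.02% in controls) than after 3 h (30.2%).

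All 10 transcripts were lower after 24 h than after 3 h of LPS, in controls and in AclyM-KO macrophages alike. A transcript was called at an adjusted p under 0.05 in edgeR's quasi-likelihood test, with Benjamini-Hochberg adjustment across the whole table. In controls 10 of 10 fell, where 36.0% of all genes tested did, and all 10 were also beyond a log2 fold change of 0.75 (19.5% of all genes). Their median log2 difference was -1.50, beside 0.04 over all genes tested. The result was 10 of 10 with all 13 libraries as well.

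Among the subunits, *Nfkb1* was at 409, 398 and 413 CPM in the 3 control libraries after 3 h and at 77.9, 77.8 and 77.7 CPM after 24 h. The libraries were nearly level within each time and far apart between them, a 5.23-fold fall (log2 -2.39, SE 0.057, edgeR adjusted p = 6.71e-26). *Rel* was at 78.1, 71.9 and 75.5 CPM and then 13.2, 12.02 and 12.4 CPM, a 6.01-fold fall (log2 -2.59, SE 0.076). *Rela*, by contrast in size, was at 159, 150 and 158 CPM and then 56.3, 58.0 and 51.4 CPM, a 2.83-fold fall. The genes of the p50 precursor and c-Rel therefore had larger fitted falls than p65, and their 95% intervals on the log2 scale, -2.50 to -2.27 and -2.74 to -2.43, did not overlap that of *Rela*, -1.62 to -1.38. *Nfkb2* was at 380, 382 and 367 CPM and then 151, 144 and 135 CPM (2.63-fold). *Relb* was at 75.0, 79.6 and 73.8 CPM and then 37.7, 32.7 and 34.4 CPM (2.18-fold). These genes of the alternative pathway had the smallest fitted falls of the subunits, with no overlap between times. The 95% interval of *Relb*, -1.26 to -0.99, did not overlap that of *Rela*, but that of *Nfkb2*, -1.50 to -1.29, did.

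Of the classical inhibitors, *Nfkbia* was at 630, 615 and 611 CPM in controls after 3 h and 283, 284 and 292 CPM after 24 h (2.16-fold lower). *Nfkbib* was at 77.8, 79.2 and 87.9 CPM and then 46.6, 44.9 and 40.2 CPM (1.87-fold lower), the smallest fall of the 10 genes. *Nfkbie* was at 189, 176 and 190 CPM and then 57.1, 56.3 and 53.8 CPM (3.32-fold lower). Each inhibitor was separated between times in all libraries of the fit. The largest fall of all 10 genes was that of *Nfkbiz*, at 330, 312 and 318 CPM and then 42.5, 40.5 and 46.4 CPM (7.38-fold, log2 -2.88, SE 0.059, edgeR adjusted p = 2.00e-27). *Bcl3*, the other nuclear IκB, was at 75.6, 82.5 and 78.8 CPM and then 26.7, 29.8 and 26.9 CPM (2.85-fold lower). Within the nuclear pair the falls thus differed widely in size.

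For all 10 genes the 3 h and 24 h control libraries of the fit did not overlap, as for 37.3% of all genes tested in the same direction. With control 24 h replicate 1 included this held for 7 of 10 (29.8% of all genes), the exceptions being *Nfkb1*, *Nfkbie* and *Nfkbiz*. In AclyM-KO macrophages 10 of 10 transcripts fell (36.3% of all genes tested), and 9 were beyond the fold of 0.75 (20% of all genes). *Nfkbiz* again fell most, 9.83-fold (log2 -3.30, SE 0.060), and *Nfkbib* least, 1.57-fold (log2 -0.65, SE 0.062). The plot of CPM by library shows each gene after 3 h and 24 h.

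**Figure D2:**
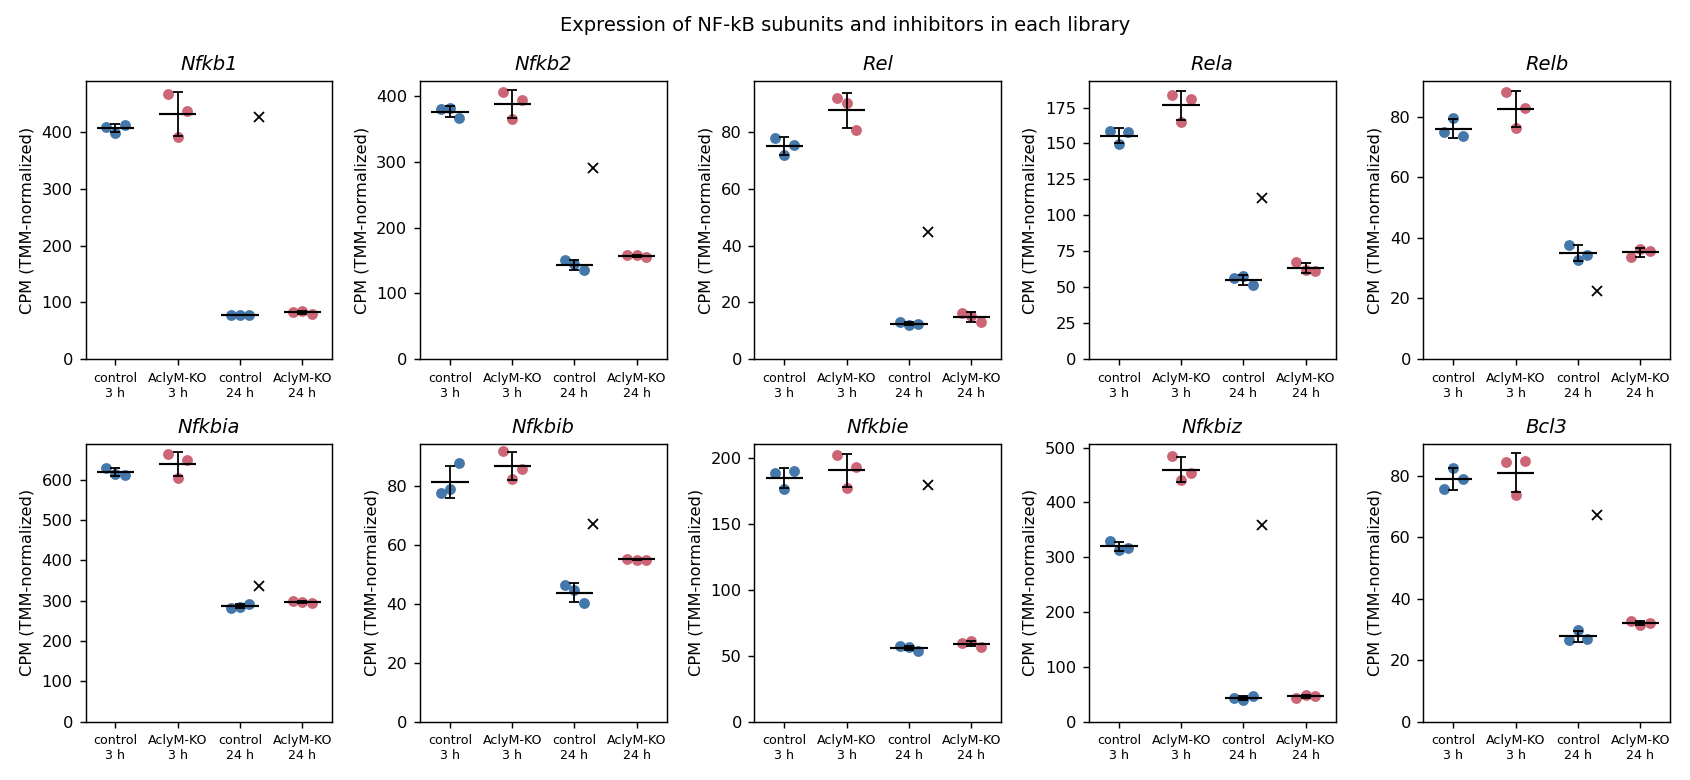
CPM (vertical axis, linear from 0, TMM-normalized) of each of the 10 genes in every library of the 4 groups. Points are libraries, lines and bars are the mean and SD of 3 libraries, and the cross is control 24 h replicate 1, which was left out of the fit and lies at 426 CPM for *Nfkb1* where the other control 24 h libraries lie at 77.7 to 77.9.

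The next comparison was that of AclyM-KO with control macrophages after 3 h of LPS. *Nfkbiz* was higher in every AclyM-KO library than in the controls, and *Rel* and *Rela* were higher by a small amount. In all, 3 of 10 transcripts rose and none fell, where 15.4% of all genes tested were called, 8.52% higher and 6.92% lower. None of the 10 was beyond the log2 fold change of 0.75 that the study used (2.01% of all genes). All 10 fitted differences were above 0, as were 48.95% of all genes, with a median of 0.09 (log2) beside -0.01 over all genes. With all 13 libraries, 2 of 10 were called (13.4% of all genes), *Nfkbiz* and *Rel*.

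*Nfkbiz* was at 330, 312 and 318 CPM in controls and 485, 441 and 453 CPM in AclyM-KO macrophages. The lowest AclyM-KO library stood above the highest control library, and the difference was 1.44-fold (log2 0.52, SE 0.054, edgeR adjusted p = 3.56e-08). *Rel* was at 78.1, 71.9 and 75.5 CPM against 92.2, 90.5 and 80.8 CPM, which did not overlap (log2 0.22, SE 0.067, edgeR adjusted p = 0.0204). *Rela* was at 159, 150 and 158 CPM against 184, 165 and 181 CPM, also without overlap (log2 0.18, SE 0.056, edgeR adjusted p = 0.0260). These were the 3 genes whose AclyM-KO libraries all lay above the controls, as 15.4% of all genes did. The calls of *Rel* and *Rela* rested on single libraries: without AclyM-KO 3 h replicate 1, control 3 h replicate 2 or control 3 h replicate 3, neither was called and *Nfkbiz* alone remained. Without AclyM-KO 3 h replicate 3, *Rela* was not called either, and without AclyM-KO 3 h replicate 2, *Nfkb1* was called as well (log2 0.16).

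The other 7 genes did not pass the test after 3 h. *Nfkb1* was at 468, 391 and 437 CPM in AclyM-KO macrophages, a range that held all 3 control libraries (95% interval of the log2 difference -0.02 to 0.20). *Nfkb2* was at 406, 365 and 394 CPM (-0.06 to 0.15) and *Relb* at 88.3, 76.4 and 82.8 CPM (-0.01 to 0.24). For the subunits p50, p52 and RelB the intervals thus hold 0 and leave room for a rise of at most 0.24 on the log2 scale. *Nfkbia* was at 664, 605 and 649 CPM (-0.05 to 0.14), *Nfkbib* at 92.0, 82.6 and 86.1 CPM (-0.04 to 0.22) and *Nfkbie* at 202, 177 and 193 CPM (-0.07 to 0.15). *Bcl3* was at 84.5, 73.7 and 84.9 CPM (-0.09 to 0.16). In each of these genes AclyM-KO replicate 2 was the lowest of its group, and the groups overlapped.

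After 24 h of LPS, the inhibitor *Nfkbib* showed the largest difference between AclyM-KO and control macrophages. With it *Rel*, *Rela* and *Bcl3* were called, so that 4 of 10 transcripts rose and none fell (13.9% of all genes were called, 8.31% higher and 5.59% lower). None was beyond the fold of 0.75 (1.38% of all genes). All 10 fitted differences were above 0, as were 51.25% of all genes, with a median of 0.12 (log2) beside 0.01 over all genes. That of *Relb* (0.01) fell below 0 in 6 of 20 alternatives. With all 13 libraries, 2 of 10 were called (12% of all genes), *Nfkbib* and *Rela*.

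*Nfkbib* was at 46.6, 44.9 and 40.2 CPM in controls and 55.3, 55.1 and 55.1 CPM in AclyM-KO macrophages. The AclyM-KO libraries were almost identical and lay above all 3 controls (1.26-fold, log2 0.34, SE 0.063, edgeR adjusted p = 3.36e-04). *Nfkbib* shares exonic sequence on the other strand with *Ccer2* and *Sirt2*. The libraries were strand-specific, but the strand setting of the counting is not given in the sources used here. If both strands were counted, reads of these genes could be counted with *Nfkbib*. *Rela* was at 56.3, 58.0 and 51.4 CPM against 67.7, 61.9 and 61.1 CPM, without overlap (log2 0.21, SE 0.059, edgeR adjusted p = 0.0163). *Rel* was at 13.2, 12.02 and 12.4 CPM against 16.3, 15.1 and 12.9 CPM, where the lowest AclyM-KO library lay below the highest control (log2 0.24, SE 0.083, edgeR adjusted p = 0.0485). *Bcl3* was at 26.7, 29.8 and 26.9 CPM against 32.6, 31.4 and 32.1 CPM, without overlap (log2 0.21, SE 0.067, edgeR adjusted p = 0.0339), and it shares exonic sequence on the other strand with *Gm16175*. Of 20 alternative analyses, *Nfkbib* was called in 20, *Rela* in 17, *Bcl3* in 10 and *Rel* in 6.

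*Nfkbiz*, the most changed of the genes after 3 h, was at 42.5, 40.5 and 46.4 CPM in controls and 43.9, 49.4 and 47.1 CPM in AclyM-KO macrophages after 24 h, with overlap (95% interval of the log2 difference -0.01 to 0.23). *Nfkb1*, *Nfkb2* and *Nfkbia* were higher in every AclyM-KO library than in the 3 controls, at 82.8, 85.1 and 78.6 CPM, at 158, 158 and 156 CPM and at 300.2, 296 and 295 CPM, but were not called (edgeR adjusted p = 0.392, 0.0850 and 0.508). Together with the called genes other than *Rel*, 6 of 10 were higher without overlap, beside 18.2% of all genes. With control 24 h replicate 1 included it was 0 of 10, beside 13.5% of all genes. *Relb* was at 37.7, 32.7 and 34.4 CPM against 33.6, 36.3 and 35.7 CPM and *Nfkbie* at 57.1, 56.3 and 53.8 CPM against 59.9, 61.1 and 56.8 CPM, with overlap in both (95% intervals -0.12 to 0.15 and -0.03 to 0.21).

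**Figure D3:**
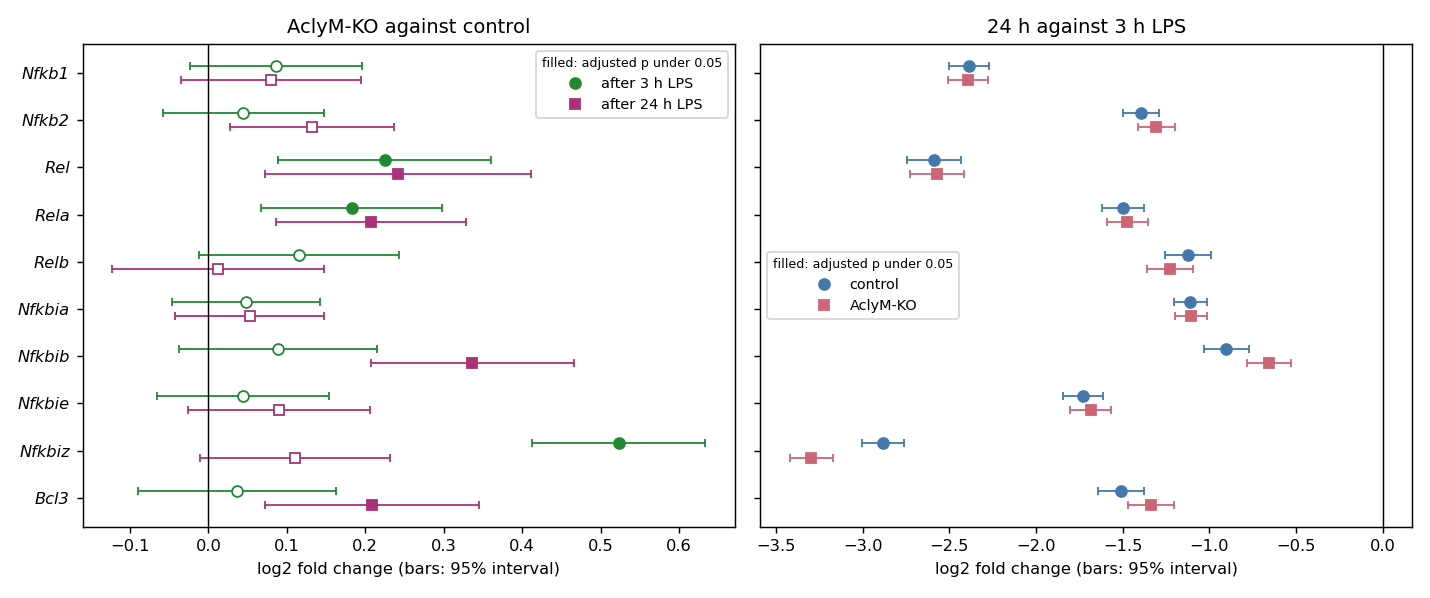
Fitted log2 fold changes (horizontal axes) of the 10 genes with 95% intervals, for AclyM-KO against control after 3 h and 24 h (left) and for 24 h against 3 h in each genotype (right), from the fit of 12 libraries. Filled symbols passed an adjusted p of 0.05. *Nfkbiz* stands apart on the left at 3 h (0.52) and on the right in AclyM-KO macrophages (-3.30).

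Whether the difference between the genotypes changed between the times was tested directly. Of the 10 genes, 1 passed this test (9.59% of all genes), *Nfkbiz*, whose difference between genotypes was 0.52 after 3 h and 0.11 after 24 h (change of -0.41 on the log2 scale, SE 0.080, edgeR adjusted p = 8.85e-04). With all 13 libraries the change was -0.44 and was not called (edgeR adjusted p = 0.234), and 0 of 10 genes passed (7.6% of all genes). None passed with the fold of 0.75 added (1.99% of all genes). *Nfkbib*, with 0.09 after 3 h and 0.34 after 24 h, differed by 0.25 (SE 0.088, edgeR adjusted p = 0.0726), and *Bcl3* by 0.17 (SE 0.091, edgeR adjusted p = 0.255). *Nfkbib* was called without AclyM-KO 3 h replicate 1 (0.28). For *Rel* and *Rela* the differences between genotypes at the times were nearly the same, 0.22 and 0.24 for *Rel* and 0.18 and 0.21 for *Rela*, with intervals of their change of -0.20 to 0.23 and -0.14 to 0.19.

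Other genes of the pathway were taken from lists of 32 upstream signalling genes, 18 feedback inhibitors and 32 known NF-κB target genes, of which *Il23a* and *Csf2* did not pass the filter. The lists were chosen with earlier results of these data known. The target list holds *Il6* and *Nos2*, which the study had reported as strongly raised in AclyM-KO macrophages. The counts below therefore describe these lists and do not test them against all genes. The upstream genes were as often higher as lower in AclyM-KO macrophages after 3 h, whereas the target genes called were mostly higher at both times. Over all genes tested, 8.52% rose and 6.92% fell after 3 h, and 8.31% rose and 5.59% fell after 24 h. Of the 32 upstream genes, 4 rose and 3 fell after 3 h (median log2 difference 0.01), shares near those of all genes, and 7 rose and 1 fell after 24 h (0.05). Of the 18 feedback inhibitors, 3 rose and 2 fell after 3 h (0.06), and 4 rose and 1 fell after 24 h (0.11). Of the 30 target genes tested, 12 rose and 1 fell after 3 h (0.09), and 14 rose and 1 fell after 24 h (0.25). With all 13 libraries the target genes gave 8 higher and 1 lower after 3 h and 11 and 1 after 24 h, the upstream genes 4 and 2 and then 7 and 1, and the feedback inhibitors 2 and 2 and then 2 and 1. The upstream list thus had medians close to those of all genes, though after 24 h 7 of its 32 genes rose, beside 8.31% of all genes. The target genes held the larger differences in size.

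Among the target genes, *Il6* was at 48.3 ± 5.58 CPM in controls and 97.3 ± 6.93 CPM in AclyM-KO macrophages after 3 h (log2 1.01), and at 9.09 ± 0.202 against 24.2 ± 3.63 CPM after 24 h (log2 1.41). The neutrophil chemokines *Cxcl1* (5.58 ± 1.26 against 14.99 ± 2.77 CPM, log2 1.42) and *Cxcl2* (36.9 ± 2.16 against 88.6 ± 13.1 CPM, log2 1.26) rose after 3 h. The monocyte chemokine *Ccl2* was at 387 ± 19.5 against 687 ± 53.1 CPM after 3 h and 210.2 ± 24.9 against 370.0 ± 42.5 CPM after 24 h. In all of these the lowest AclyM-KO library lay above the highest control of the fit, but control 24 h replicate 1, at 112 CPM for *Il6* and 515 CPM for *Ccl2*, lay above all AclyM-KO libraries of that time. *Ptgs2*, which encodes cyclooxygenase-2, rose at both times (log2 0.81 and 0.94), and *Nos2*, the inducible nitric oxide synthase, passed the fold after 24 h only (log2 0.91, and 0.44 after 3 h). From the feedback inhibitor list, the pseudokinase gene *Trib3* was low after 3 h, at 0.793 ± 0.213 against 2.87 ± 1.04 CPM (log2 1.87). The target gene *Csf3*, which encodes G-CSF, had only 1, 2 and 1 counts in controls and 9, 11 and 15 in AclyM-KO macrophages after 3 h. The ratio of CPM was 8.53 (95% counting interval 3.05 to 33.0). After 24 h it had 4, 6 and 6 against 17, 22 and 21 counts (5.48, 3.12 to 10.2). None of the 10 subunit and inhibitor genes reached the fold of 0.75 that these genes passed.

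*Nfkbid*, which encodes the nuclear inhibitor IκBNS and is kin to *Nfkbiz*, was looked up after its values were seen. It was at 6.31 ± 1.17 CPM in controls and 9.33 ± 1.14 CPM in AclyM-KO macrophages after 3 h (log2 0.56, SE 0.133, edgeR adjusted p = 0.00368), and at 5.26 ± 0.485 against 6.07 ± 0.268 CPM after 24 h, where it was not called (edgeR adjusted p = 0.272). *Il12b*, named for the same reason as another gene known to need IκBζ, was at 62.5 ± 4.59 against 75.8 ± 7.43 CPM after 3 h. Its AclyM-KO libraries (68.1 to 83.0 CPM) lay above the controls (57.4 to 66.4 CPM), but it was not called (log2 0.28, SE 0.19, edgeR adjusted p = 0.400). *Il6*, named above as such a gene, was called higher at both times. Whether *Nfkbiz* has a part in these differences was not tested.

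**Figure D4:**
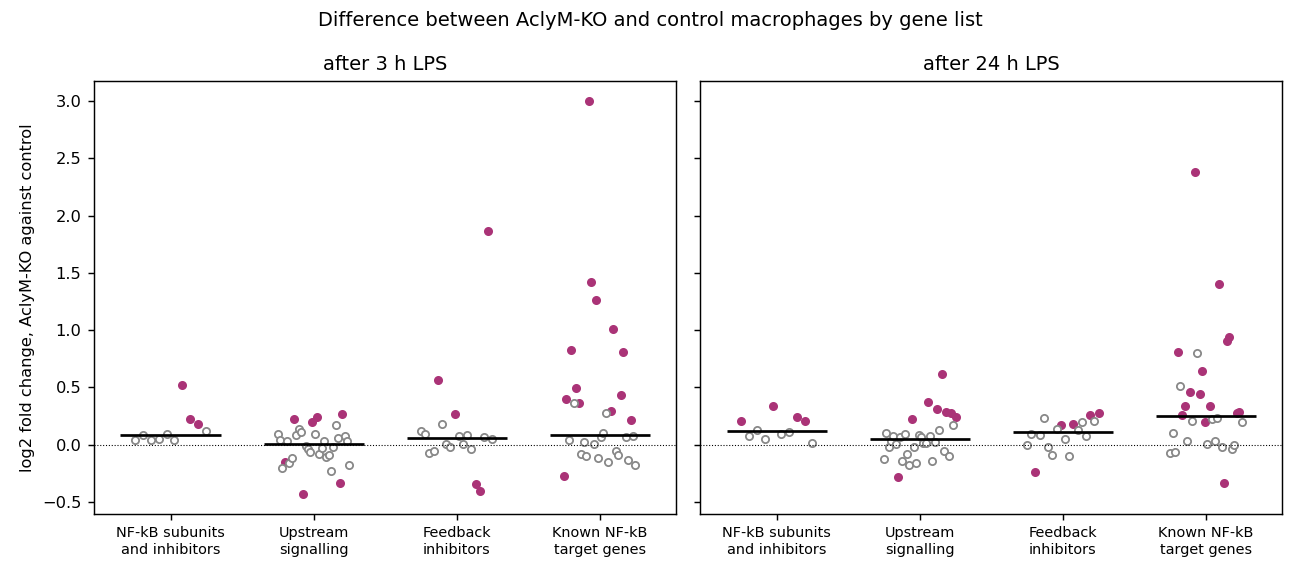
Fitted log2 differences between AclyM-KO and control macrophages (vertical axis) after 3 h and 24 h for the 10 genes and the 3 lists of other pathway genes. Each point is a gene, filled where the adjusted p was under 0.05, and lines are medians (0.09 for the 10 genes and 0.09 for the target genes after 3 h, 0.12 and 0.25 after 24 h).

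The Acly effect differed between the times for 7 of 32 upstream genes, 3 of 18 feedback inhibitors and 7 of 30 target genes, beside 9.59% of all genes, and for 6, 2 and 4 of them with all 13 libraries (7.6% of all genes). The LPS receptor gene *Tlr4* went from 0.27 after 3 h to -0.10 after 24 h (change -0.37). The adaptor and kinase-arm genes went the other way: *Tirap* by 0.62, *Ticam1* by 0.45, *Traf6* by 0.42, *Tab3* by 0.54, *Rnf31* by 0.40 and *Malt1* by 0.24. These 6 genes thus had a more positive difference after 24 h than after 3 h, whereas over the whole upstream list 19 of 32 changes were above 0, beside 52.07% of all genes. The A20-binding genes *Tnip2* and *Tnip3* changed by 0.55 and 0.48, from -0.35 and -0.40 after 3 h, and *Trib3* by -1.66. Of the target genes, *Cxcl10* (0.44), *Nos2* (0.47), *Gadd45b* (0.31), *Cd40* (0.43) and *Cd83* (0.31) had a more positive difference after 24 h, and *Bcl2l1* (-0.30) and *Marcksl1* (-0.25) a more negative one. With all 13 libraries *Malt1*, *Tnip3*, *Cxcl10*, *Cd83* and *Marcksl1* were not called, and the calls of *Ticam1*, *Malt1*, *Bcl2l1*, *Cd83* and *Marcksl1* were each lost on leaving out any of several single libraries.

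Between the times in controls, 15 of the 32 upstream genes, 9 of the 18 feedback inhibitors and 22 of the 30 target genes fell, and 11, 7 and 6 rose (36.0% of all genes fell and 38.9% rose). The counts of the 3 lists were equal with all 13 libraries. The fall of all 10 subunit and inhibitor genes therefore stood beside lists that moved both ways, with median log2 differences of -0.07, -0.28 and -1.12. *Cd14*, the LPS co-receptor, fell by 3.25 on the log2 scale and *Tab2* by 1.66, while *Ikbkg*, which encodes the regulatory subunit of the IκB kinase, rose by 1.53 and *Map3k14*, the kinase of the alternative pathway, by 1.40. Among the genes listed as feedback inhibitors, *Tnip3* (-2.80) and *Tnfaip2* (-2.57) fell most. *Trib3* (4.16) and *Irak3* (1.56), a brake on TLR signalling, rose most. This list was set by name, and whether each of its genes inhibits NF-κB was not tested. Among the target genes, *Cd83* (-5.51) and *Vcam1* (-4.18) fell most and *Saa3* (4.55) and *Ccl5* (1.53) rose most.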

How the data were processed

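RNA-seq was analysed in 13 BMDM libraries. The authors made mRNA libraries, aligned reads to mm10 with STAR 2.5.2b and counted tags on each RefSeq transcript with HOMER, and the deposited values are these whole-number counts, without normalization. The submitters' processing notes also name CASAVA 1.8.2. The strand and isoform settings of the counting are not given in the sources used here. Where a gene has several transcripts, tags can be counted on each of them, and *Nfkb2*, *Relb*, *Nfkbib*, *Nfkbie* and *Nfkbiz* have 2 or 3.

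Of 35745 transcripts, 35435 were paired with a symbol through RefSeq's gene table and 35628 after GENCODE M21 was added. The 117 others held 1.13% of all counts and stayed in the fit. Groups came from the titles. Counts were normalized by TMM, filtered with filterByExpr and fitted in edgeR 4.0.16 (R 4.3.3, limma 3.58.1) as robust quasi-likelihood models of 4 groups in 12 libraries with 8 residual degrees of freedom, without control 24 h replicate 1. P-values were adjusted over the 19621 transcripts tested, and standard errors came from the fold change and the F statistic. The fit was tested on simulated data. Alternatives were all 13 libraries, other size factors, DESeq2 1.42.0, other filters, 1 transcript per gene, only the groups compared, a replicate block, the study's fold threshold and leaving out each library. Precision is set by the spread of 3 libraries, and intervals on single counts cover counting error only.

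The 10 genes and the lists were chosen with earlier results of these data known. Named besides them were the list genes beyond a log2 fold change of 0.75 or with a called change of the Acly effect, and the 2 largest rises and falls per list over time.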

Additional observations from a re-analysis of the deposited data

Results flagged for a closer look

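Control 24 h replicate 1 lay far above the other 3 control 24 h libraries in 8 of the 10 genes, by Dixon's test at the 95% level. That test flags about 1 group in 20 by chance only where every library of a group has the same spread. Here 1 count of this library stood for 22.4 CPM, so that rate does not apply and low depth alone can give a flag. The genes share 1 library of 34467 counts, so these are not separate observations. Its values were 425.8 CPM for *Nfkb1* (19 counts), 291.3 CPM for *Nfkb2* (13 counts), 44.8 CPM for *Rel* (2 counts), 112.0 CPM for *Rela* (5 counts), 336.1 CPM for *Nfkbia* (15 counts), 179.3 CPM for *Nfkbie* (8 counts), 358.5 CPM for *Nfkbiz* (16 counts) and 67.2 CPM for *Bcl3* (3 counts). For *Nfkb1*, *Nfkb2*, *Nfkbie* and *Nfkbiz* the exact Poisson interval of the count, 256 to 665, 155 to 498, 77.4 to 353 and 205 to 582 CPM, held the mean of the control 3 h libraries and not that of the other control 24 h libraries. For *Rel*, *Rela* and *Bcl3* it held both. For *Nfkbia* it was 188 to 554 CPM and held the 24 h mean only. For the target genes that fell most with time, this library was at 224 CPM (*Cd83*) and 22.4 CPM (*Vcam1*, 1 count). Control means were 404 and 77.6 CPM after 3 h, and 8.90 and 4.25 CPM in the other 24 h libraries. For those that rose most, it was at 67.2 CPM (*Saa3*) and 627 CPM (*Ccl5*). Control means of these were 119 and 737 CPM after 3 h, and 2796 and 2135 CPM in the other 24 h libraries. What sets this library apart was not tested.

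The Acly effect on *Nfkbiz* differed between the times, with a change of -0.4125 on the log2 scale from 0.52 after 3 h to 0.11 after 24 h (edgeR adjusted p = 8.85e-04). AclyM-KO was higher in 3 of 3 libraries after 3 h.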

How the results depend on the processing

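The fall of all 10 genes with time was called in each genotype under all alternatives run, except that the fold threshold left 9 in AclyM-KO macrophages. After 3 h, the count of genes with an Acly effect was 3, and 1 to 4 when single libraries were left out. After 24 h it was 4, and 2 with all 13 libraries, 2 without the filter on low counts, 1 with the replicate block and 1 to 4 when single libraries were left out. It was 1 without AclyM-KO replicate 1 or control replicate 4 of that time, and 2 without AclyM-KO replicate 2, control replicate 2, control 3 h replicate 1 or control 3 h replicate 3. For the change of the effect it was 1, and 0 with all 13 libraries and 1 to 2 when single libraries were left out. The fold threshold left 0 in each of these comparisons. *Nfkbiz* after 3 h and *Nfkbib* after 24 h were called in 20 of 20 alternatives. *Relb* after 24 h (0.01) was -0.013 without the filter, -0.00237 with the block and -0.030 to 0.065 when libraries were left out, never called. The calls over the other pathway lists, summed over 3 h and 24 h so that a gene called at both times counts at each, were 53, and 42 with all 13 libraries and 47 to 53 when libraries were left out. DESeq2 gave no adjusted p for *Csf3* at either time. Of 857 log2 differences of the 10 genes under alternatives, 813 kept their direction and side of the threshold, 36 lost the call, 2 gained it and 6 turned, all of them *Relb* after 24 h. The causes were not tested.

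The labels do not say whether replicate numbers pair the samples. Deviations of 10 same-numbered pairs correlated at -0.018 to 0.099 and those of 26 other pairs at -0.105 to 0.096. Between AclyM-KO 3 h and 24 h libraries, same-numbered pairs correlated at 0.045 to 0.071 and other pairs at -0.046 to -0.006. In the other comparisons of groups these ranges overlapped. The highest other pair was control 3 h replicate 1 with control 24 h replicate 4 (0.096), which a block by number does not join. The column names of the counts carry running numbers too, and these 2 libraries hold the lowest of their groups. Paired in that order, the control libraries of the fit correlated between the times at 0.007 to 0.096, and otherwise at -0.105 to 0.035. What the running numbers stand for is not stated, and no fit used them. Whether libraries of the 2 times shared cultures was not tested. With the replicate block the counts were 3 after 3 h, 1 after 24 h, 1 for the change, 10 and 10 over time, and 50 in the lists. In 24 h control replicate 1, depth limits each gene to 1 to 19 counts, and the fold of *Csf3* rests on few counts in all libraries.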
